A study of Arabidopsis thaliana with 4 samples.

Results

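RNA signals of cytochrome P450 genes of Arabidopsis thaliana were compared between the smg7b mutant and wild type. The members were the probe sets that the platform annotation pairs with 1 gene and whose gene is named as a cytochrome P450 in the RefSeq table, with reductases left out. This rule used no measured value and gave 24 probe sets for 24 genes, of 13286 RefSeq genes with a single-gene probe set. RefSeq names 244 such genes, so the members are 9.84% of them. The subfamily CYP71B holds 19 of the members. The other 5 are CYP51G2, CYP718, CYP78A9, CYP79A2 and CYP84A4, each from a family of its own.

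RNA came from whole plants of the Columbia-0 accession, 17 days after germination, kept in constant light with 65% humidity and 22 °C, in pots 5 inches wide. Wild type (Col-0) and the mutant, a T-DNA insertion line of the SALK collection in the same accession whose sample titles read smg7b-1, were each represented by 2 samples, 1 per Affymetrix ATH1 array. The insertion was studied in 1 line, and no complemented line was measured, so other changes in that line cannot be told apart from the insertion. The labels do not say that the 2 samples of a genotype came from separate plants, so the p-values reflect the variation among these particular samples, and that variation may be purely technical.

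P450 enzymes are haem proteins, most of them anchored in the endoplasmic reticulum, that use electrons from a P450 reductase to insert an oxygen atom of molecular oxygen into a substrate. In plants they make and inactivate hormones, build lignin, cutin, sterols and pigments, and form defence compounds. Families and subfamilies (CYP71, CYP71B) are defined by protein similarity, and CYP71B genes of Arabidopsis often lie side by side as tandem copies. Some CYP71B enzymes act in tryptophan-derived defence metabolism, among them CYP71B15 (PAD3), which completes the phytoalexin camalexin and is not analysed here.

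By its title the series looks for genes targeted by SMG7b in nonsense-mediated mRNA decay, which removes transcripts with premature stop codons. The targeted gene, SMG7L, read 49.7 and 46.8 on the wild-type arrays against 16.7 and 14.4 on the smg7b arrays, lower on both mutant arrays. All signals are in the authors' scaled array units. Background was the brightest Bacillus control probe set of each array, 6.42 to 9.21 units, and 72.0% to 75.5% of plant probe sets lay above it. The 3'/5' ratio of the Actin control probe sets, a measure of RNA integrity, differed between arrays, with log2 values of 1.15 and 3.11 in wild type against 4.69 and 3.27 in the mutant. Of 17 listed tissue markers, 1 (PYK10, a root gene) had a single-gene probe set, which read 327 and 363 in wild type against 402 and 513 in the mutant, so the makeup of the tissue was hardly checked. In whole plants, fewer cells of a type and less RNA per cell cannot be told apart.

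Of the 24 genes, 12 were bright enough to be tested (a mean log2 signal over the 4 arrays of at least 4.32), and 3 of them, CYP71B23, CYP71B24 and CYP71B6, rose in smg7b. In limma 0 of the 12 were called lower. Their log2 rises were 4.04, 2.22 and 1.29, or 16.4-fold, 4.67-fold and 2.45-fold. The remaining 9 tested genes had log2 differences from -0.69 to 0.49. Calls were made with limma over all 13648 tested probe sets at a Benjamini-Hochberg adjusted p of 0.05, where 11.3% of all tested probe sets were called higher and 9% lower. The 3 of 12 make 25%, and whether this differs from the share over all probe sets was not tested. At an unadjusted p of 0.05 limma gave 4 members higher and 1 lower. The share of all tested probe sets at that unadjusted threshold was not counted, so nothing is read from these 2 counts.

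**Figure D1:**
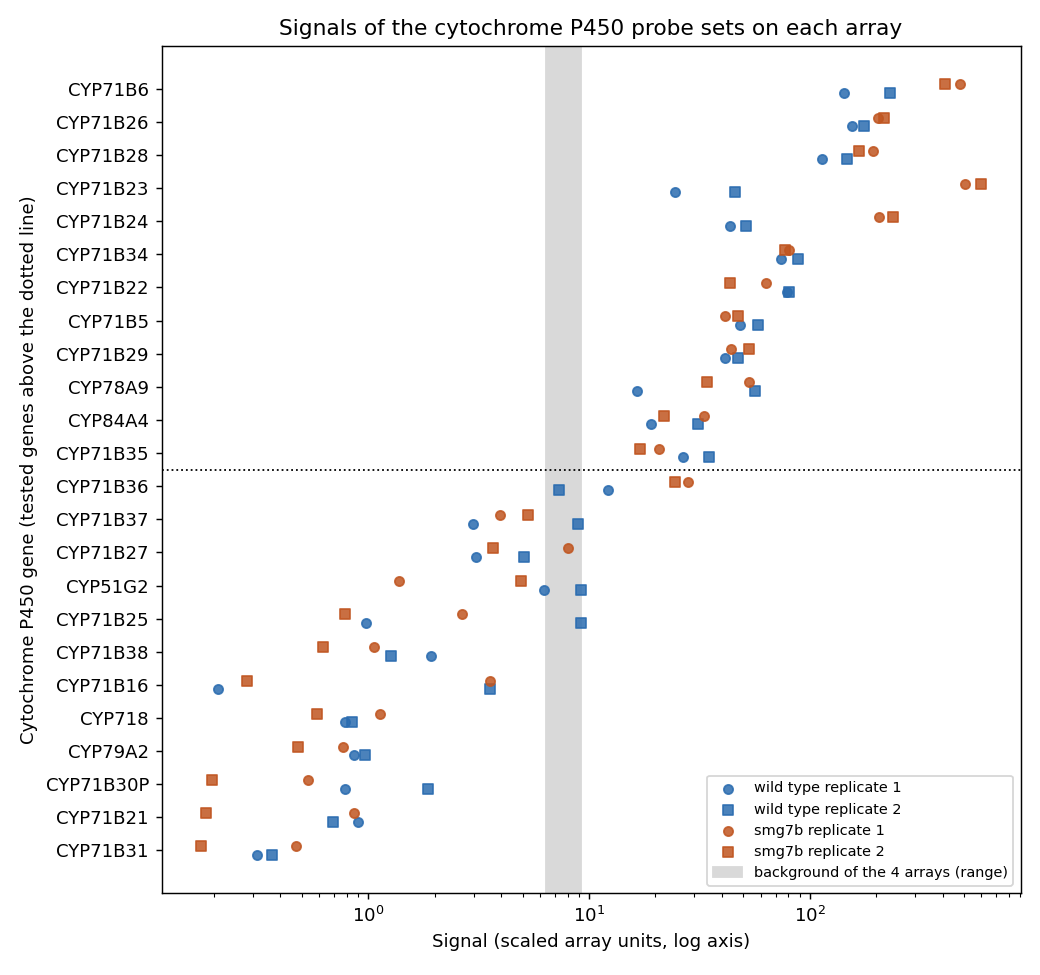
Signal of each cytochrome P450 probe set on each array, on a log axis in the authors' scaled units. Circles and squares are replicates 1 and 2, blue is wild type and orange smg7b, the grey band spans the background of the 4 arrays (6.42 to 9.21), and genes are sorted by the mean log2 signal used by the filter, which does not rank abundance between genes. The smg7b points of CYP71B23 and CYP71B24 stand far to the right of the wild-type points.

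CYP71B23 (AT3G26210, chromosome 3) gave 24.6 and 45.7 in wild type against 505 and 600 in the mutant. Both mutant arrays were far brighter than either wild-type array, and the 2 wild-type arrays differed more from each other than the mutant arrays did. The log2 difference was 4.04 (SE 0.27, n = 2 per genotype, 95% interval 3.44 to 4.63), and its adjusted p in limma was 1.23e-06. It was the 64th largest rise among the 13648 tested probe sets. On the log2(signal + 32) scale the rise was 3.13, a scale that shrinks changes from low signals.

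CYP71B24 (AT3G26230, chromosome 3) gave 43.6 and 51.6 in wild type against 206 and 237 in the mutant. The groups were far apart and each was tight, with SDs of log2 signal of 0.17 and 0.14. The rise was 2.22 on the log2 scale (SE 0.21, 95% interval 1.76 to 2.69, adjusted p = 2.19e-05 in limma), the 274th largest.

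CYP71B6 (AT2G24180, chromosome 2) is known to act on indole-3-acetonitrile, an intermediate of tryptophan-derived defence metabolism, and yields indole-3-carboxylic acid. Its signals were 142 and 232 in wild type against 479 and 412 in the mutant. The mutant arrays lay above both wild-type arrays, but wild-type replicate 1 was well below replicate 2. The log2 rise was 1.29 (SE 0.24, 95% interval 0.77 to 1.81, adjusted p = 0.00284 in limma). With the Actin ratio as a covariate it was 0.76 (SE 0.27, adjusted p = 0.0462, a p that this fit understates because its spread came from the intensity trend alone), and without smg7b replicate 1 it was 1.18 (adjusted p = 0.0472). In the latter fit the lone mutant array was assumed to vary like the wild-type pair, and both p-values lay close to the threshold.

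The Actin ratio moved with genotype, so the pair of arrays closest in that ratio, wild-type replicate 2 and smg7b replicate 2, was also compared alone. Between these single arrays, a comparison with no test, CYP71B23 was higher by 3.71 on the log2 scale, CYP71B24 by 2.20 and CYP71B6 by 0.83. Over the 4 pairings of a mutant with a wild-type array, the differences ran from 3.46 to 4.61 for CYP71B23, from 2.00 to 2.45 for CYP71B24 and from 0.83 to 1.75 for CYP71B6. With the Actin ratio as a covariate in limma, CYP71B23 rose by 3.59 (SE 0.29) and CYP71B24 by 2.16 (SE 0.30). The same 3 genes were called higher in each of the 14 alternative settings, which reuse the same 4 arrays. Of these settings 4 leave a genotype with a single array, assumed to vary like the other genotype, and 3 (either wild-type array left out, or the Actin covariate) have understated p-values.

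**Figure D2:**
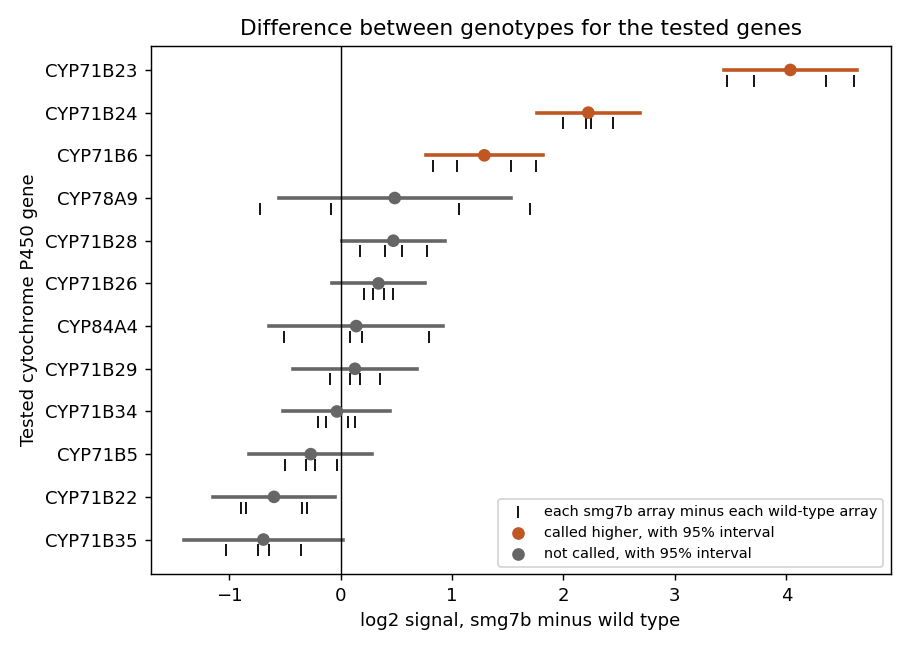
Difference of log2 signal between smg7b and wild type for the 12 tested genes. Dots are the limma estimates with their 95% intervals (orange for the 3 called higher), and black ticks under each are the 4 differences between single mutant and wild-type arrays. The intervals, which are not adjusted for the number of tests, lie wholly above 0 for CYP71B23, CYP71B24, CYP71B6 and the uncalled CYP71B28, wholly below 0 for the uncalled CYP71B22, and span 0 for the rest.

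Among tested CYP71B genes that were not called, 2 gave higher signals on both mutant arrays. Of all tested probe sets, called or not, 30.1% lay wholly above. CYP71B28 (AT1G13090) read 114 and 148 in wild type against 194 and 167 in the mutant, a log2 difference of 0.47 (SE 0.21, adjusted p = 0.139 in limma). It was 0.66 without wild-type replicate 2 (adjusted p = 0.0235, an understated p), 0.29 without wild-type replicate 1 (adjusted p = 0.439) and 0.14 in the Actin covariate fit (adjusted p = 0.834). CYP71B26 (AT3G26290) read 156 and 177 in wild type against 204 and 217 in the mutant. Its difference of 0.34 had a 95% interval of -0.08 to 0.76, so a rise of 2-fold lay outside it.

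Another 3 CYP71B genes had both mutant arrays below both wild-type arrays without passing the test. Of all tested probe sets, called or not, 31.2% lay wholly below. CYP71B22 (AT3G26200) read 78.7 and 81.0 in wild type against 63.7 and 43.7 in the mutant, with a log2 difference of -0.60 (SE 0.25, adjusted p = 0.116 in limma), which was -0.33 without smg7b replicate 2 and -0.87 without smg7b replicate 1. CYP71B35 (AT3G26310) read 26.6 and 34.8 against 20.8 and 17.1, with a difference of -0.69 (SE 0.33, adjusted p = 0.159), or -1.06 in the Actin covariate fit (adjusted p = 0.188). CYP71B22 lies next to CYP71B23, and the 95% intervals of the differences of these neighbours, -1.14 to -0.05 and 3.44 to 4.63, were far apart. CYP71B5 (AT3G53280) read 48.5 and 58.5 against 41.3 and 47.4, and its difference was -0.27 (SE 0.25), moving between -0.40 (wild-type replicate 1 left out) and -0.13 (wild-type replicate 2 left out).

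For CYP71B34 and CYP71B29 the genotypes overlapped. CYP71B34 (AT3G26300) read 73.9 and 88.7 in wild type against 81.0 and 77.3 in the mutant, a log2 difference of -0.03 (95% interval -0.51 to 0.45). CYP71B29 (AT1G13100) read 41.5 and 47.2 in wild type against 44.1 and 53.1 in the mutant, a difference of 0.13 (95% interval -0.43 to 0.69). A 2-fold change in either direction (1 on the log2 scale) lay outside both intervals, as it did for 6 of the 9 tested genes that were not called.

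Of all 12 tested genes, 5 had both mutant arrays above both wild-type arrays, 3 had both below and 4 overlapped. Over all tested probe sets, 30.1% lay wholly above and 31.2% wholly below. The median log2 difference of the 12 genes was 0.24, beside -0.01 for all tested probe sets. This median rested on wild-type replicate 1, since without that array it was -0.06.

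Outside CYP71B, the 2 tested genes did not pass. CYP78A9 (AT3G61880) belongs to a family that promotes organ growth, and its overexpression enlarges fruits and seeds. Its wild-type signals, 16.4 and 56.7, enclosed both mutant signals, 53.3 and 34.3. The log2 difference was 0.49 (SE 0.48, 95% interval -0.55 to 1.52, adjusted p = 0.512 in limma). It was 1.38 without wild-type replicate 2 (adjusted p = 0.00120, an understated p) and -0.41 without wild-type replicate 1 (adjusted p = 0.380), so the 2 wild-type arrays decided its direction.

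CYP84A4 (AT5G04330), an enzyme of the arabidopyrone branch of phenylpropanoid metabolism, read 19.2 and 31.3 in wild type against 33.2 and 21.9 in the mutant. Each genotype had 1 low and 1 high array, and the groups overlapped. The log2 difference was 0.14 (SE 0.36, 95% interval -0.64 to 0.92, adjusted p = 0.820 in limma), and it was -0.21 without wild-type replicate 1 and -0.16 without smg7b replicate 1.

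The remaining 12 genes were too dim for the test. The filter fell between CYP71B35, the dimmest tested gene with a mean log2 signal of 4.58, and CYP71B36, the brightest untested one at 3.97. CYP71B36 (AT3G26320) was the only untested gene above background on all 4 arrays, with 12.2 and 7.28 in wild type against 28.0 and 24.5 in the mutant. Every mutant array exceeded every wild-type array, by 1.00 to 1.94 on the log2 scale. Fitted with no filter, its log2 difference was 1.47 (SE 0.52, unadjusted p = 0.0188), which did not pass in limma (adjusted p = 0.114).

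CYP51G2, CYP71B25 and CYP71B37 exceeded background on 1 array each, wild-type replicate 2 in every case. CYP51G2 (AT2G17330), a relative of the sterol demethylase gene CYP51G1 that RefSeq lists as a transcribed pseudogene, read 6.26 and 9.17 in wild type against 1.38 and 4.91 in the mutant. CYP71B25 read 0.98 and 9.15 against 2.66 and 0.78, and CYP71B37 read 2.99 and 8.91 against 3.94 and 5.27. At these levels no fold is given, because the mutant signals did not exceed background and the wild-type ones barely did.

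The other 8, CYP718, CYP79A2, CYP71B16, CYP71B21, CYP71B27, CYP71B30P, CYP71B31 and CYP71B38, lay at or below background on every array, with signals from 0.17 to 8.02. CYP79A2 (AT5G05260), which starts benzylglucosinolate synthesis from phenylalanine, read 0.86 and 0.97 in wild type against 0.77 and 0.48 in the mutant. CYP71B27, the other transcribed pseudogene among the members, read 3.07 and 5.06 against 8.02 and 3.66. Such signals give no order between genotypes.

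The members were then placed in gene order, because 11 of them belong to a single run of tandem copies. From CYP71B16 to CYP71B37 on chromosome 3, RefSeq (assembly TAIR10.1) lists 25 genes, of which 18 are CYP71B genes. Of the 18, 11 are members, 2 (CYP71B19 and CYP71B20) share 1 probe set and 5 are not analysed here. Of the 11, 6 were tested, 2 rose and 0 were called lower in limma, beside 11.3% higher and 9% lower over all tested probe sets. The median log2 difference of the 6 was 0.15. At an unadjusted p of 0.05 in limma, 1 of the 6 (CYP71B22) was lower, and the share of all tested probe sets at that threshold was not counted.

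The 2 called genes of the run, CYP71B23 and CYP71B24, are separated by CYP71B3 alone, which is not analysed here. On their one side lie CYP71B22, with its difference of -0.60, and CYP71B21, below background on all arrays. On the other side, beyond 6 genes that are not P450 genes, lie CYP71B25 and, after CYP71B4, CYP71B26, with its difference of 0.34. The probe set shared by CYP71B19 and CYP71B20, outside the rule because it reads 2 genes, gave 277 and 316 in wild type against 749 and 695 in the mutant. Its signals did not overlap either, and it rose by 1.29 on the log2 scale (SE 0.19, adjusted p = 6.90e-04 in limma). At the far end the tested CYP71B34 and CYP71B35 gave -0.03 and -0.69, and the dim, untested CYP71B36 gave 1.47. CYP71B37, the last gene of the run, exceeded background on 1 array only. All 24 member probe sets carry the manufacturer's plain suffix for probe sets of a single transcript, but cross-hybridisation between tandem copies was not tested.

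**Figure D3:**
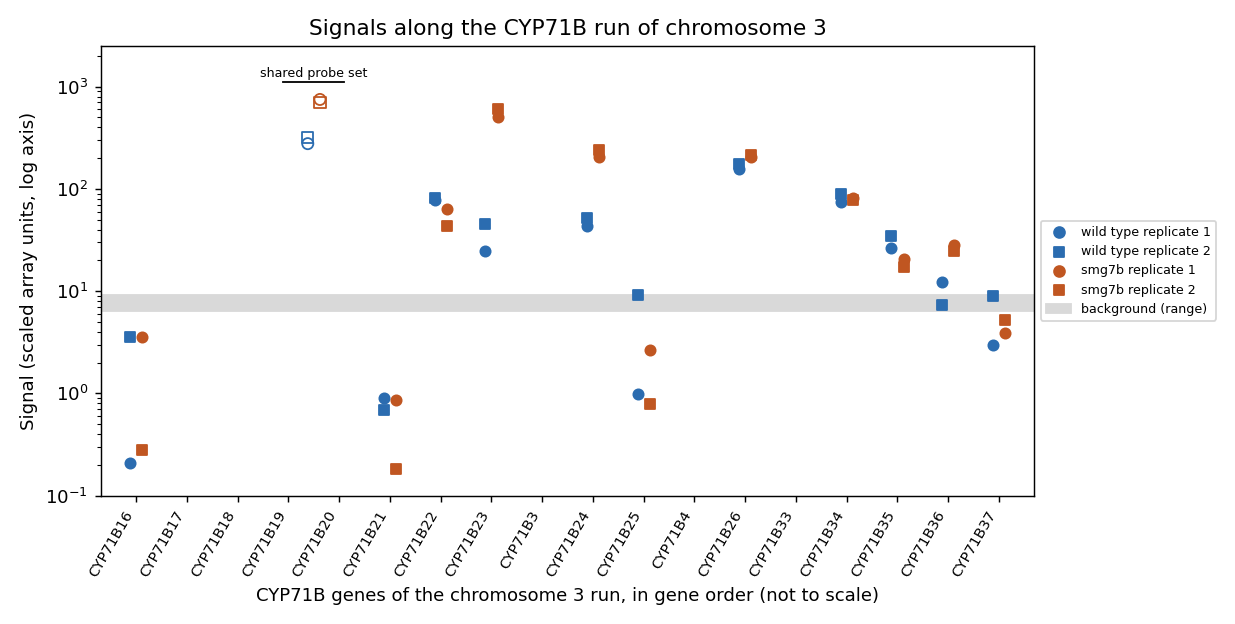
Signals of the CYP71B genes along the chromosome 3 run, in gene order and not to scale, on a log axis. Blue is wild type, orange smg7b, circles and squares are replicates 1 and 2, open symbols are the probe set shared by CYP71B19 and CYP71B20, the grey band is the range of background, and positions without symbols are genes not analysed here. CYP71B23 and CYP71B24 separate by genotype far more widely than CYP71B22, CYP71B26, CYP71B34 and CYP71B35, whose differences lie between -0.69 and 0.34. The shared probe set (difference 1.29) and the untested CYP71B36 (1.47) also have both mutant arrays above both wild-type arrays.

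The other CYP71B members lie elsewhere, 8 in all, of which 4 were tested and 1 (CYP71B6) rose. Over all tested probe sets, 11.3% were called higher and 9% lower. On chromosome 1, CYP71B27, CYP71B28 and CYP71B29 form a short run together with CYP71B2, which is not analysed here. CYP71B27 was too dim to be tested, and CYP71B28 and CYP71B29 did not pass. Elsewhere on chromosome 3, CYP71B5, CYP71B30P and CYP71B31 lie together. CYP71B30P (0.79 and 1.86 in wild type, 0.53 and 0.20 in smg7b) and CYP71B31 (0.31 and 0.37, against 0.47 and 0.17) were below background on every array beside the measurable CYP71B5.

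**Figure D4:**
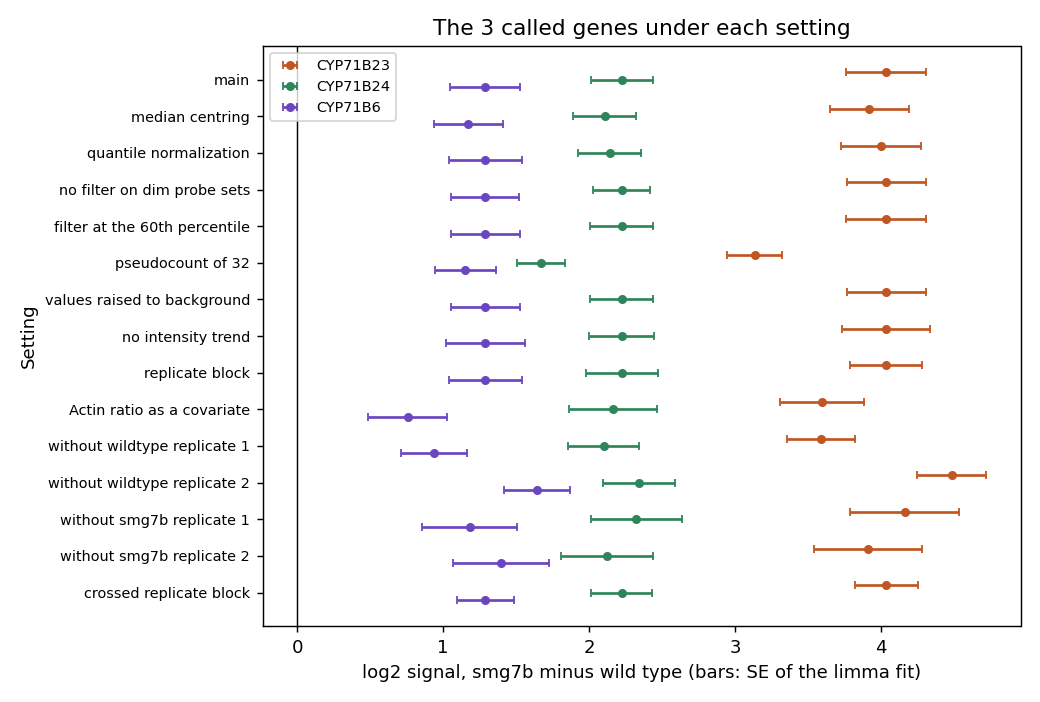
Difference of log2 signal between smg7b and wild type for CYP71B23, CYP71B24 and CYP71B6 under the main setting and each of 14 alternatives. Dots are estimates and bars their SE in limma. All estimates lie above 0, from 3.13 to 4.48 for CYP71B23, from 1.67 to 2.35 for CYP71B24 and from 0.76 to 1.64 for CYP71B6.

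By role, coverage was thin. The 11 lists of P450 genes by pathway held 77 genes, of which 4 had a single-gene probe set. They were CYP71B6 among 12 camalexin and indole glucosinolate enzymes, CYP79A2 among 4 of the aliphatic and benzyl glucosinolate pathways, CYP84A4 among 7 phenylpropanoid enzymes and CYP78A9 among 6 hormone and organ size genes. The brassinosteroid, gibberellin, abscisic acid, jasmonate, carotenoid, sterol, fatty acid and triterpene P450 genes listed were not analysed here.

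Partner genes of these pathways, 70 listed with the P450 reductases, had 4 single-gene probe sets. Of these, 3 were tested and 1 rose in limma. The share called over all tested probe sets was 11.3% higher and 9% lower. The partner gene that rose was AT2G04400, listed by locus among the indole pathway partners but given no name in the RefSeq table. It read 254 and 194 in wild type against 447 and 508 in the mutant. The groups did not overlap, and the log2 rise was 1.10 (SE 0.21, adjusted p = 0.00290). UGT74B1, a glucosyltransferase of glucosinolate synthesis, read 280 and 415 against 535 and 549. Its difference of 0.67 did not pass (adjusted p = 0.0522 in limma), but it did in 5 of the 14 alternatives. These were quantile normalization (adjusted p = 0.0392), the 60th percentile filter (0.0433) and a pseudocount of 32 (0.0461), all close to the threshold. The others were the fit without wild-type replicate 2, whose p is understated, and a crossed replicate block added after seeing the data. The difference was 0.39 without wild-type replicate 1 and 0.34 in the Actin covariate fit (adjusted p = 0.519). HCT, an acyltransferase of lignin synthesis, read 754 and 601 in wild type against 488 and 497 in the mutant, a difference of -0.45 (SE 0.20, adjusted p = 0.143). Leaving out wild-type replicate 2 gave -0.61 (adjusted p = 0.0178, an understated p) and leaving out replicate 1 gave -0.29 (adjusted p = 0.379).

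CCR2, a cinnamoyl-CoA reductase gene linked to defence, was too dim for the filter. It read 0.53 and 1.09 in wild type, below background. The mutant arrays read 17.7 and 21.2, which is at least 2.99-fold higher. Fitted with no filter it passed (adjusted p = 0.0118 in limma). That fit took the wild-type signals below background at face value, so its p does not test the bound. The bound compares the mean mutant log2 signal with the mean log2 background of the wild-type arrays.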

How the data were processed

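The deposited values are 1 intensity per probe set and array on a linear scale. They were made by the authors with MAS5 and GCOS, per the submitters' processing notes, with no version named there. The 2% trimmed mean of each array was 100.01, so signals had been scaled. Dim probe sets keep noisy values. Values were log2-transformed without a pseudocount, and 64 control probe sets were left out. The 13648 of 22746 probe sets whose mean log2 reached the 40th percentile entered the test, with limma 3.58.1 in R 4.3.3 (lmFit, eBayes with an intensity trend, genotype as the only term, all 4 arrays). With 2 arrays against 2, the smallest p of an exact permutation test is 0.333, and the calls therefore depend on pooling the spread across probe sets. Precision is limited by the number of arrays. The fit was also run on simulated data, drawn independently for each array with spreads from the same fit. That run cannot show how the fit handles differences in RNA quality between arrays.

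In the platform annotation 13513 probe sets have 1 gene and 503 have several. Of the former, 13436 matched RefSeq by gene identifier. The word cytochrome P450 was sought in RefSeq symbols and synonyms. Coordinates are left out because no build is named in the labels. Members and gene lists were chosen with earlier results of these data known, and lists were recalled by locus. Every member may be named, with called members of at least 2-fold change and members of the role lists in full. Of the partner lists, called members and the extremes are named.

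Alternatives were median centring, quantile normalization, other filters, a pseudocount of 32, values raised to background, no intensity trend, a replicate block, the Actin ratio as a covariate and each array left out. Same-numbered arrays deviated from their genotype means with a correlation of -0.15. This gave no sign of pairing by number, but with so few arrays it cannot exclude such pairing.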

Additional observations from a re-analysis of the deposited data

How the results depend on the processing

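The count of P450 genes called higher was 3 in the main setting and in 13 of the 14 alternatives, and 0 were called lower in any. Leaving out single arrays gave 3 to 5 higher, the 5 without wild-type replicate 2, where CYP78A9 and CYP71B28 also passed. In 3 fits (either wild-type array left out, or the Actin covariate) limma's spread came from the trend only, with 13648 total degrees of freedom in place of 11.6, and their p-values are understated. The P450 median log2 difference of 0.24 was -0.013 with no filter (24 genes), 0.47 at the 60th percentile (7 genes), -0.046 with the Actin ratio and -0.064 to 0.46 with single arrays left out. Over all probe sets, 1543 were called higher and 1228 lower. With the Actin ratio 603 were lower, and with single arrays left out 720 to 2291 were higher and 260 to 2034 lower. Median centring shifted the median of all tested probe sets by -0.12 and the share of calls that were higher from 55.7% to 42.2%, with the same 3 P450 genes called. The replicate block gave 3 P450 genes and changed no call among the members. There CYP71B23 had an adjusted p of 6.02e-10 in limma, with an SE of 0.25 against 0.27 in the main fit. The total degrees of freedom were 18.6 in place of 11.6, so this p is not comparable with the main one. A crossed replicate block was added after seeing the data because of the negative correlation. It gave 3 P450 genes, and over all probe sets 2103 higher and 1885 lower, with 47.3 total degrees of freedom. Partner genes called numbered 1, and 2 after quantile normalization, with no filter, at the 60th percentile, with a pseudocount of 32 and in the crossed block, and 1 to 3 with single arrays left out. The causes were not tested.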
